A study of Mus musculus with 4 samples.

Results

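The 10 genes described here, Sbp, Spink1, Sbpl, Defb50, 9530002B09Rik, Msmb, Pbsn, Cbr2, Tgm4 and Azgp1, are transcripts that stood high in normal mouse prostate, and all but Cbr2 encode products known or thought to be released into prostatic fluid. They are 10 of the 24319 gene names in the deposited tables. They were chosen from their level in these same libraries, so their levels and their differences between tissues are given as a description, without a test. They are not simply the first 10 genes by level. In the mean of the normal libraries, the microRNA locus Mir684-1 and the ribosomal protein genes Rps28 and Rps18 also stood above Pbsn, and Azgp1 ranked 124 and 140 in the separate normal libraries.

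The prostate is a male accessory gland whose luminal epithelial cells make and export a small set of proteins in very large amounts. In rodents these proteins differ between the lobes of the gland, depend on androgen, and mix in the ejaculate with seminal vesicle proteins to form the copulatory plug. Their production is commonly taken as a sign of the differentiated luminal state.

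The study compared 2 tissues by RNA sequencing, with 2 libraries each: wild-type prostate of C57BL/6 and FVB F1 males at 22 weeks, and TRAMP tumours of transgene-heterozygous F1 males of the same parental strains, labelled late stage at 24 weeks, while the protocol gives a range of ages that starts there. TRAMP mice carry SV40 T antigen under the rat probasin promoter, which is active in prostate epithelium, so the transgene is driven by the regulatory sequence of the rat counterpart of Pbsn, a gene described here. The labels do not state that the tumours came from separate mice, so a p-value measures only the spread between these samples. Tables were in FPKM (fragments scaled by transcript length and by the number mapped in the library), which allows levels to be compared between genes. The width of the deposited intervals implied 986717 and 1580686 fragments for normal prostate and 1435619 and 1143599 for the tumours. The intervals printed below are the deposited ones and cover counting error within a library only.

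A promoter window from RefSeq (GRCm38.p6) was matched for 7 of the 10 genes, all but Spink1, Defb50 and Msmb. Each window runs from 250 bases before the start site to 50 after it. The 250 bases before the RefSeq start are shown for 5 genes, chosen because these genes differed widely in how much RNA was left in tumour 2. Androgen dependence is known for genes of this kind. Any link of the letters to it, or to the RNA left, was not tested. Capitals mark AGAACA or its reverse complement TGTTCT, the core letters of an androgen response element, and TATAAA, the TATA box.
Sbp, chr17:23941668-23941917, plus strand: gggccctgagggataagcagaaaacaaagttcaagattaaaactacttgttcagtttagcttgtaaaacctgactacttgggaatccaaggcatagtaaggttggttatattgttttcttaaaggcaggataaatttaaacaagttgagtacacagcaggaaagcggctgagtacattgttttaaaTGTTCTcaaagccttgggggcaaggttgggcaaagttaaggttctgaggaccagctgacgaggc
Sbpl, chr17:23955274-23955523, minus strand: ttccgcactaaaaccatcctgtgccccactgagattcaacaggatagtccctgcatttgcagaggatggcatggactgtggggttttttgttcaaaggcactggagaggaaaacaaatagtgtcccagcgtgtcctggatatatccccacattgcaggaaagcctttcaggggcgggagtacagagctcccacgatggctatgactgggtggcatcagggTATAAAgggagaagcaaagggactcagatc
9530002B09Rik, chr4:122689009-122689258, plus strand: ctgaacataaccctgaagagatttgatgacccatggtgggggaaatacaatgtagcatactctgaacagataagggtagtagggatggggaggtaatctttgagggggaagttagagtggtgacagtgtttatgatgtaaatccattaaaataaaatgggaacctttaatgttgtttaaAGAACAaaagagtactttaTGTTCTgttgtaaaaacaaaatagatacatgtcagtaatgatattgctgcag
Pbsn, chrX:77853501-77853750, minus strand: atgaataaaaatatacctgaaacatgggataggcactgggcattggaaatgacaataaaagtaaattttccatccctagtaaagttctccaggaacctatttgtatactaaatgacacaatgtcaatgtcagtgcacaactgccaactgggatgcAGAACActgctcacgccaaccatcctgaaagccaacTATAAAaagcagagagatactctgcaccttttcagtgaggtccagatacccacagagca
Tgm4, chr9:123034491-123034740, plus strand: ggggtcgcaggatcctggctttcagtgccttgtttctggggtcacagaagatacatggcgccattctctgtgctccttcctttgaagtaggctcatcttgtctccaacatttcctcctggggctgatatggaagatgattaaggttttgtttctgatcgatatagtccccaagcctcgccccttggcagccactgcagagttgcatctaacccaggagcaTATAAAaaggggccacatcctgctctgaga

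AGAACA, searched on both strands over the full windows, was found in 4 of the 7 windows (Sbp, 9530002B09Rik, Pbsn and Azgp1), against 19% of all 32851 RefSeq windows. The gene 9530002B09Rik had a match on each strand, at -71 and -52 from the start site, while Pbsn had 1 at -95 and Sbp 1 at -64. The match of Azgp1 lay at 15, after the start site. TATAAA, also searched on both strands, was found in 3 of 7 windows (Sbpl, Pbsn and Tgm4), against 13.6% of all windows. It lay at -30 in both Sbpl and Tgm4 and at -59 in Pbsn. GENCODE M21 starts Pbsn at 77853623, upstream of the RefSeq start site at 77853500 used here. The full palindrome, AGAACA and TGTTCT with 3 free bases between them, was in 0 of 7 windows and in 0.00913% of all. The forkhead motif TGTTTAC was in 0 of 7 and in 3.65% of all. No match overlapped another in the 7 windows. RefSeq lists 3 start sites for Sbp, and the nearest window ended 29 bases before the deposited start of the gene. GENCODE M21 starts Sbp at 23941672, upstream of the RefSeq start site used here. Nearly all of the bases printed for Sbp, with the match at -64, thus lie within the gene as annotated there. These matches describe the letters of the windows and are not measured binding sites.

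**Figure D1:**
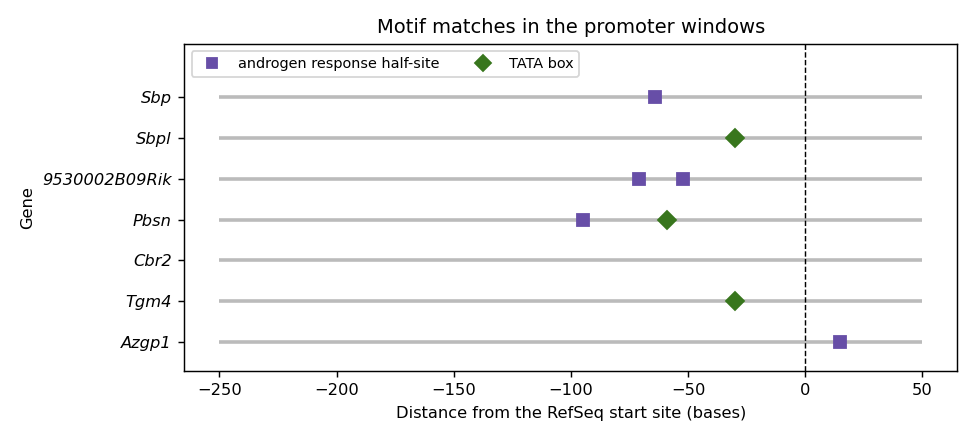
Matches of the AGAACA hexamer of androgen response elements (squares) and of the TATAAA box (diamonds) in the promoter windows of 7 genes, by distance in bases from the RefSeq start site (dashed line). Of the 7 windows, 4 hold a square and 3 hold a diamond, and the window of Cbr2 holds neither.

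Together the 10 genes held 51.8% of all FPKM in normal 1 and 54.6% in normal 2, a mean of 53.2% ± 1.99 (SD, n = 2). In tumour 1 they held 0.00236% and in tumour 2 1.87%. The normal libraries lay close together, and the tumours lay far below them and far from each other. Most of these transcripts are short, and FPKM divides by transcript length. In GENCODE M21 the transcript with the longest coding sequence ran from 373 bases for Defb50 to 2785 for Tgm4. Counted as implied fragments the share was smaller, at 27.8% and 30.8% for normal prostate and 0.00125% and 0.671% for the tumours. Spink1, for example, had 19.9% of the FPKM but 5.26% of the fragments of normal 1. In tumour 1 the 10 genes rested on 18 implied fragments in all, and in tumour 2 on 7677.5. All 10 passed the filter on low values through the normal libraries, and all 10 were lower in both tumours than in both normal libraries. Among the 13162 genes tested, 33.3% did the same and 37.7% were higher in both tumours, and the choice of members used this contrast, so nothing is read from that count. In bulk tissue, fewer secretory cells and less of each RNA per cell cannot be told apart.

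**Figure D2:**
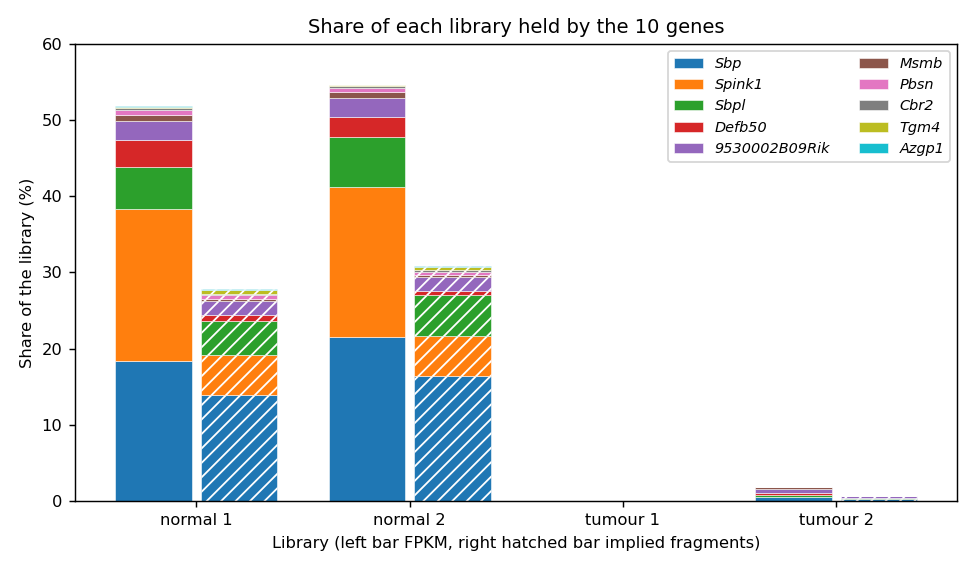
Share of each library (%) held by the 10 genes, stacked by gene, as FPKM (left bars) and as fragments implied by the deposited intervals (right, hatched bars). The normal libraries reach 51.8% and 54.6% by FPKM, tumour 2 reaches 1.87%, and the bar of tumour 1 (0.00236%) is too low to see.

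Sbp (chromosome 17, 23941996 to 23945607, 3 exons) encodes spermine-binding protein, an androgen-dependent secretion of the ventral lobe that binds polyamines. Sbp stood at 162211 FPKM (interval 161334 to 163087) in normal 1 and at 180689 (179978 to 181399) in normal 2. In tumour 1 it stood at 1.74 FPKM (0 to 4.21), which rests on 2 implied fragments, and in tumour 2 at 2923 (2807 to 3039). Both normal values thus lay above both tumour values, and tumour 2 retained 1.71% of the normal mean, a 58.7-fold lower level. Even so, Sbp ranked 9 among all genes of tumour 2.

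Its paralog Sbpl (chromosome 17, 23953085 to 23955273, 3 exons), which encodes a spermine-binding protein-like product, lies 7477 bases away on the opposite strand. Sbpl stood at 49164 and 55322 FPKM in the normal libraries, was listed at 0 in tumour 1, and stood at 1514 (1433 to 1596) in tumour 2, which is 2.90% of the normal mean. Sbpl ranked below Spink1 and Sbp in both normal libraries and below Sbp in tumour 2. The GENCODE coding sequences of the pair are 93.3% identical over 594 aligned bases. Of 821 words of 50 bases in the Sbpl transcript, 323 also occur in that of Sbp, so a fragment from these stretches can be assigned to either gene, and the separate values are uncertain. The longest stretch that their coding sequences share without a difference is 145 bases, bases 206 to 350 of Sbp and 251 to 395 of Sbpl, and is printed because it shows how far reads of the pair can coincide.
Sbp and Sbpl, shared coding run: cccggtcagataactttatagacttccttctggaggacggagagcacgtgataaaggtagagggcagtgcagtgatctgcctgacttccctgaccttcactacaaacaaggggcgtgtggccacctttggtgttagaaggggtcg

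Spink1 (chromosome 18, 43728069 to 43737237, 4 exons), a secreted Kazal-type trypsin inhibitor of pancreas and male accessory glands, matched Sbp in level. It stood at 176265 FPKM (174717 to 177813) in normal 1 and 166058 (164905 to 167211) in normal 2, ahead of Sbp in the former and behind it in the latter. Tumour 1 listed it at 0, and tumour 2 had 72.9 FPKM (41.8 to 104), or 22 implied fragments. That is 0.0426% of the normal mean, so Spink1 and Sbp, of like level in normal prostate, lay 40.1-fold apart in tumour 2 on the FPKM scale. Spink1 RNA is also known from the seminal vesicle, a gland that lies against the prostate. Of the 10 seminal vesicle markers in the tables, 9 (Svs1, Svs2, Svs3a, Svs3b, Svs4, Svs5, Svs6, Pate4 and Sva) were listed at 0 in all 4 libraries. The other, Ceacam10, had 6.10 and 2.31 FPKM in the normal libraries.

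Defb50 (chromosome 8, 21823539 to 21831296, 2 exons), a beta-defensin and so one of the small cationic antimicrobial peptides, stood at 31461 and 21846 FPKM in the normal libraries. Normal 2 thus stood at 0.694 of normal 1, with intervals far apart. Defb50 was listed at 0 in tumour 1 and stood at 1323 (1173 to 1474) in tumour 2, 4.97% of the normal mean. Its locus is a defensin cluster. Within 100 kb, Defb1 stood at 688 and 556 FPKM in the normal libraries, at 0 in tumour 1 and at 14.8 in tumour 2. Defb2 (20.9 and 28.7) and Defb10 (122 and 4.36) were listed at 0 in both tumours.

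The gene 9530002B09Rik (chromosome 4, 122689259 to 122705135, 5 exons), which RefSeq also lists as Vpp1, stood at 22062 and 21326 FPKM in the normal libraries. Normal 2 stood at 0.967 of normal 1. Tumour 1 had 5.34 FPKM (0.980 to 9.70), from 6 implied fragments. Tumour 2 had 2854 (2738 to 2969), which is 13.2% of the normal mean and overlaps the interval of Sbp there, although Sbp had been far higher in normal prostate.

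Msmb (chromosome 14, 32142023 to 32158326, 4 exons) encodes beta-microseminoprotein, a cysteine-rich protein that is among the main secretions of the human gland. It stood at 7630 (7365 to 7896) and 6049 (5867 to 6231) FPKM in the normal libraries, at 1.74 (0 to 5.21) in tumour 1 from 1 implied fragment, and at 1210 (1104 to 1317) in tumour 2. At 17.7% of the normal mean, Msmb had the highest such share of the 10 in tumour 2, with an interval that overlaps that of Cbr2. Against normal 1 alone Cbr2 stood higher, at 16.7% against 15.9% for Msmb. GENCODE M21 places Gm18909 on the opposite strand within the gene.

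Pbsn (chromosome X, 77837898 to 77853500, 7 exons) encodes probasin, an androgen-regulated lipocalin. It stood at 5569 (5400 to 5738) and 4325 (4210 to 4439) FPKM in the normal libraries. It was listed at 0 in tumour 1 and stood at 21.4 (11.0 to 31.8) in tumour 2, from 17 implied fragments. The gene whose rat counterpart supplies the promoter of the transgene was thus at 0.433% of the normal mean in tumour 2, a 231-fold lower level.

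Tgm4 (chromosome 9, 123034741 to 123067558, 14 exons) encodes the prostate transglutaminase, which cross-links seminal vesicle proteins in the copulatory plug of rodents. It stood at 1412 (1371 to 1452) and 1117 (1089 to 1144) FPKM in the normal libraries, at 1.30 (0.238 to 2.36) in tumour 1 and at 0.570 (0 to 1.38) in tumour 2. These tumour values rest on 6 and 2 implied fragments and their intervals overlap. Tgm4 was the exception to the order of the tumours, since for the other 9 genes tumour 2 stood above tumour 1. In GENCODE M21 the gene overlaps Gm49323 on the same strand and Zdhhc3 on the opposite strand. By the deposited positions Zdhhc3 does not overlap Tgm4 but lies 4752 bases away. Zdhhc3 stood at 9.26 to 11.4 FPKM over the 4 libraries. The strand setting of the counting was not given in the sources used here.

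Cbr2 (chromosome 11, 120729485 to 120732021, 8 exons) is not a secreted product. It encodes an intracellular NADPH-dependent carbonyl reductase, best known from mouse lung. Cbr2 stood at 2056 (1969 to 2142) and 2291 (2221 to 2361) FPKM in the normal libraries, at 2.03 (0 to 4.38) in tumour 1 and at 344 (309 to 379) in tumour 2, which is 15.8% of the normal mean. Its nearest listed neighbour, Dcxr, which encodes a dicarbonyl and xylulose reductase, stood at 289 and 235 in the normal libraries, 1.55 in tumour 1 and 53.6 in tumour 2. Azgp1 (chromosome 5, 137981521 to 137990232, 4 exons), which encodes the secreted zinc-alpha-2-glycoprotein, was the least abundant of the 10. It stood at 558 (519 to 597) and 428 (402 to 454) FPKM, was listed at 0 in tumour 1, and stood at 48.0 (36.6 to 59.3) in tumour 2, 9.72% of the normal mean.

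**Figure D3:**
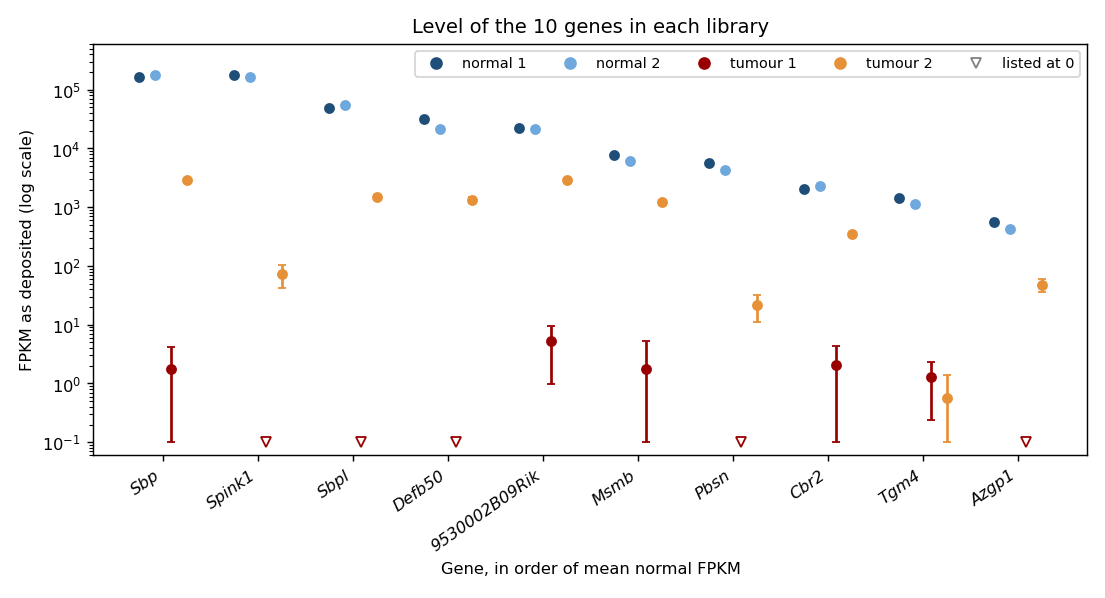
FPKM as deposited (log axis) of the 10 genes in each of the 4 libraries, with the deposited interval as bars (bars that reach 0 end at the axis floor) and open triangles for values listed at 0. Normal values run from 428 to 180689, those of tumour 1 do not pass 5.34, and tumour 2 lies between them for every gene except Tgm4.

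The levels did not shrink by a common factor in tumour 2. The share of the normal mean that remained ran from 0.0426% (Spink1) and 0.0451% (Tgm4) to 17.7% (Msmb), a 415-fold range, with a median of 3.93%. The intervals of Spink1 and Tgm4 overlap, as do those of Msmb and Cbr2. On scaled FPKM the shares were lower, from 0.0209% to 8.75%. Ratios between genes of the same library do not depend on how libraries are scaled. Within the set the order of levels changed accordingly. In normal prostate it ran Sbp and Spink1, whose order differed between the 2 libraries, then Sbpl, Defb50, 9530002B09Rik, Msmb, Pbsn, Cbr2, Tgm4 and Azgp1. Defb50 and 9530002B09Rik were close in normal 2, at 21846 and 21326 FPKM with overlapping intervals. In tumour 2 Sbp and 9530002B09Rik led with overlapping intervals, followed by Sbpl, Defb50 and Msmb, whose neighbouring intervals also overlapped, then Cbr2, then Spink1 and Azgp1 with overlapping intervals, then Pbsn and Tgm4. The 3 genes with the smallest remainder, Spink1, Tgm4 and Pbsn, had been at 171162, 1264 and 4947 FPKM on average in normal prostate, so the remainder did not follow the starting level. In tumour 1, 5 of the 10 genes were listed at 0 and the other 5 stood between 1.30 and 5.34 FPKM on 1 to 6 implied fragments, too few to order them. The leading genes of the tumours were of other kinds, namely Mir684-1 (37715 FPKM summed over its rows), Mir684-2, Ptma, Ppia and Tmsb4x in tumour 1 and Mir684-1 (19887), Eef1a1, Ppia, Mir684-2 and Rpl41 in tumour 2.

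**Figure D4:**
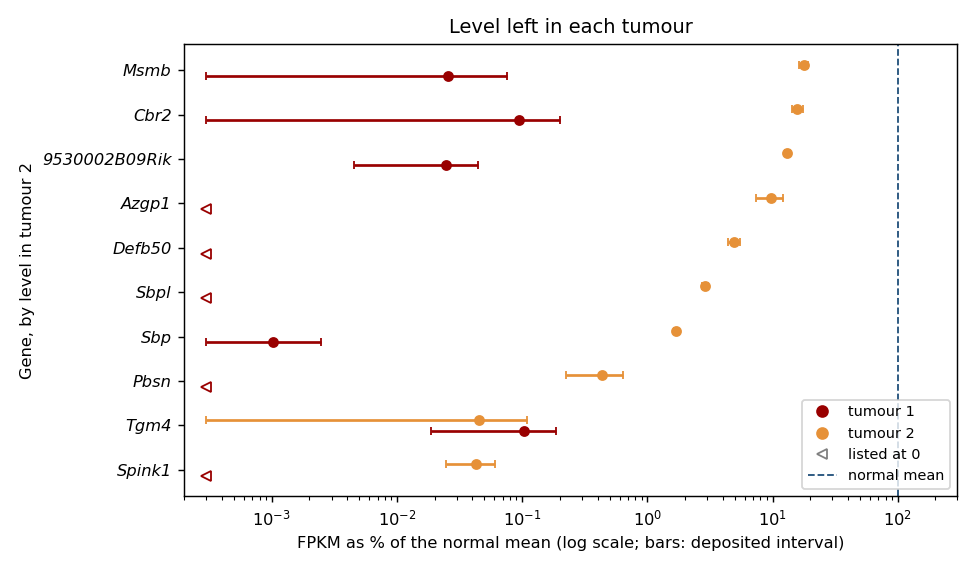
FPKM of each gene in tumour 1 and tumour 2 as a percentage of its mean in the normal libraries (log axis, with the deposited interval of the tumour value as bars cut at the left end and open triangles for values listed at 0). Tumour 2 spans 0.0426% for Spink1 to 17.7% for Msmb, and tumour 1 is at or below 0.103% for every gene.

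For scale, 122 other genes had a normal mean at or above that of Azgp1. Their median in tumour 1 was 70.0% and in tumour 2 84.8% of the normal mean, as FPKM. Of these 122, 9 lay below the 17.7% of Msmb in tumour 2, namely 9530053A07Rik, Defb1, Ezr, Mir29c, Mir669h, Mt1, Pgap2, Prdx6 and Wfdc3. The normal means of Mir669h (3402 and 0 FPKM) and Mir29c (1610 and 173) rest mainly on normal 1. Between the normal libraries the log2 difference of the 10 genes on the log2(scaled FPKM + 1) scale ran from -0.32 to 0.37. The standard deviation over all genes tested was 0.61. It includes genes of low level and was not matched to the level of the 10. Scaled FPKM, here and below, is FPKM divided by a median-of-ratios factor for each library.

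Markers of several cell types also differed between the libraries. In tumour 1 the summed FPKM of 10 luminal epithelium markers was 442, of which the surface glycoprotein gene Cd24a gave 410, against 1514 and 1566 in the normal libraries, and Cdh1 and Cldn7 were listed at 0. In tumour 2 the sum was 3286, and 8 of the 10 markers stood at or above the lower normal library as FPKM and 5 of the 10 as scaled FPKM. The share of all genes that did so was not computed, so nothing is read from these counts. With FPKM as deposited, the median log2 fold change over all genes tested was 0.86, tumours minus normal. The luminal keratin Krt8 was at 141 and 132 FPKM in the normal libraries, 0.346 in tumour 1 and 658 in tumour 2. Krt18 was at 353 and 363, then 0.463 and 383, and the adhesion molecule Epcam at 333 and 400, then 27.3 and 304. In the same library all 10 genes of the set lay at or below 17.7% of their normal mean. Neuroendocrine markers went the other way, with 11 of 11 above 0 in both tumours and a summed FPKM of 4.71 and 2.86 in the normal libraries against 977 and 1443 in the tumours. Chga, for the granule protein chromogranin A, was listed at 0 in both normal libraries and stood at 179 and 595 in the tumours, and Syp, for the vesicle protein synaptophysin, at 0.324 and 0.381 against 58.1 and 51.8. The summed FPKM of 7 smooth muscle markers was 510 and 411 in the normal libraries, 31.1 in tumour 1, where Myh11, Cnn1 and Actg2 were listed at 0, and 185 in tumour 2. That of 6 basal epithelium markers was 64.9 and 53.6, then 9.57 in tumour 1, where only Itga6 was above 0, and 44.1 in tumour 2. Tumour 2 had the highest sums of 6 fibroblast markers (97.5 and 68.2 in the normal libraries, 67.7 and 565 in the tumours), 5 endothelial markers (2.26 and 0.942, then 1.18 and 50.1) and 5 macrophage markers (6.04 and 7.22, then 25.7 and 96.2). Sums of 5 T and NK cell markers did not pass 1.96 in any library, and those of 6 skeletal muscle markers ran from 29.5 to 62.9. The part of these markers in the levels of the 10 genes was not tested.

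Within 100 kb of the 10 genes, 55 genes outside the set are listed, of which 4 had a normal mean of at least 100 FPKM. Sbp and Sbpl are neighbours of each other. Apart from Sbpl, 9 genes are listed within 100 kb of Sbp, and the highest had a normal mean of 2.61 FPKM (Prss27), while the 3 Dcpp genes on that stretch were listed at 0 in all 4 libraries. Around Spink1 the 3 listed genes were at 0 in both normal libraries, and around Pbsn the highest of 3 had a normal mean of 1.90 (Prkx). The highest neighbour of Azgp1 was Zkscan1 at 4.99. The 4 above 100 FPKM were Defb1 near Defb50 (622), Dcxr and Stra13 near Cbr2 (262 and 111) and Ncoa4 beside Msmb (197). Ncoa4, which encodes a ferritin receptor and nuclear receptor coactivator, stood at 244 and 150 FPKM in the normal libraries and at 17.5 and 100 in the tumours, a smaller drop than that of Msmb in both tumours.

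Genes outside the set were ranked by how close their centred log2(scaled FPKM + 1) profile over the 4 libraries lay to the mean profile of the 10. Among 491 candidates with at least 100 FPKM in both normal libraries, the nearest were Defb1 (Euclidean distance 2.98), the glycosyltransferase gene Abo (3.33), the whey acidic protein domain gene Wfdc3 (3.63), Oit1 (3.68) and the protease inhibitor gene Spink5 (3.69). All 5 were listed at 0 in tumour 1 and stood between 3.55 (Wfdc3) and 110 FPKM (Abo) in tumour 2. The 10 genes themselves lay 2.09 (9530002B09Rik) to 5.20 (Spink1) from their own mean profile. With 4 libraries this likeness mainly reflects the large gap between tissues.

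Beyond the set, 30 names of other prostate secretory products were examined, of which 29 are in the tables and 18 could be tested. Of these 6 fell, 0 rose and 12 did not pass in limma (adjusted p under 0.05), against 8.27% of all genes called lower and 9.85% called higher. The median log2 fold change was -3.59, against 0.07 over all genes tested. All 6 passed the filter on low values only with the normal libraries, since none reached 1 FPKM in both tumours, so a gene of this kind could be tested only if it was high in normal prostate, and the count is given as a description. The 6 were Wfdc3, 9530053A07Rik, Fcgbp, Spink5, Spink8 and Pnliprp1. Wfdc3 fell from 1281 and 780 scaled FPKM to 0 and 2.36 (log2 fold change -9.09, SE 0.66, limma adjusted p = 0.0195). The gene 9530053A07Rik stood at 1155 and 1238 scaled FPKM in normal prostate, 0 in tumour 1 and 0.661 in tumour 2 (log2 fold change -9.86, SE 0.35, limma adjusted p = 0.00705). Fcgbp, for a mucus-associated IgG Fc-binding protein, fell from 98.8 and 102 to 0 and 0.346 (-6.45, SE 0.37, limma adjusted p = 0.0183). Spink5, a multi-domain Kazal inhibitor, fell by 7.41 (SE 1.03), a call lost with a pseudocount of 0.1. Spink8 and the pancreatic lipase relative Pnliprp1 were listed at 0 in both tumours, at 9.28 and 7.28 and at 7.82 and 2.76 FPKM in normal prostate. These levels rest on 6 and 8 and on 14.7 and 9 implied fragments, most of them too few for a measured level.

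Other members of that list stayed present in tumour 2. Mmp7, a matrix metalloproteinase that activates defensins in the gut, stood at 223 and 290 scaled FPKM in the normal libraries, 0 in tumour 1 and 201 in tumour 2. Pigr, the receptor that carries IgA across epithelium, stood at 307 and 447, then 0.0103 and 192. Both lay below the normal libraries in tumour 2 on this scale, but not as deposited, where Mmp7 had 302 FPKM against 177 and 200 and Pigr 288 against 244 and 308. Clu, for the secreted chaperone clusterin, stood at 118 and 108 scaled FPKM, then 1.03 and 600. Mmp7, Pigr and Clu were chosen after their values were seen and did not pass the test. Without tumour 1, 10 of 17 members were lower and 2 higher, when 20.0% of all genes were lower and 11.6% higher. Without tumour 2 the median log2 fold change of the 16 tested was -6.02, against -0.14 over all genes. With only tumour 1 left, a gene could pass the filter on low values only with a normal library. In tumour 1, 20 of the 29 names were listed at 0, so nothing is read from the direction there. Without normal 1 or normal 2, limma called 0 members, with 3 lower in each case at an unadjusted p under 0.05.

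Of 18 androgen response and luminal regulator genes tested, 3 fell, 2 rose and 13 did not pass, with a median log2 fold change of -1.67. Over all genes, 8.27% were called lower and 9.85% higher. Of the 3 that fell, 2 did not reach 1 FPKM in both tumours, and 1 of the 2 that rose did not in both normal libraries. These passed the filter on low values only with the group where they were high, so the counts are given as a description. Fkbp5, an androgen-induced co-chaperone, fell from 493 and 653 scaled FPKM to 21.9 and 21.7 (log2 fold change -4.64, SE 0.26, limma adjusted p = 0.0183). Spdef, an ETS factor of secretory cells, fell by 5.83 (SE 1.21), a call that neither FPKM as deposited nor a pseudocount of 0.1 kept. Ndrg1 rose 5.17-fold and Pmepa1, a TGF-beta feedback gene, 3.32-fold, the latter call lost with a pseudocount of 0.1. Their normal levels rest on 7 and 8 and on 3 and 7 implied fragments, so the sizes of these folds are uncertain. With FPKM as deposited 2 fell and 4 rose, when 427 of all 13162 genes were called lower and 3681 higher. Without tumour 1 the median log2 fold change of the 17 tested was -1.15, against -0.04 over all genes. Without tumour 2 it was -2.60 for the 17 tested, against -0.14 over all genes. Without normal 1 or normal 2, limma called 0 members, with 7 lower and 2 higher, and 6 lower and 1 higher, at an unadjusted p under 0.05.

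The machinery that carries secreted proteins into the endoplasmic reticulum was lower on the scaled values. Of 31 genes tested, 10 fell, 0 rose and 21 did not pass, against 8.27% of all genes called lower and 9.85% called higher, with a median log2 fold change of -1.09. The largest falls were those of Sec11c, a catalytic subunit of the signal peptidase, from 780 and 777 scaled FPKM to 20.4 and 89.8 (17.7-fold, limma adjusted p = 0.0293), Tram1 (8.44-fold), the translocon subunit Sec61b (7.08-fold) and Ssr4 (5.76-fold). The smallest were those of Spcs2 (2.83-fold) and Srp9 (2.99-fold). These calls depend on the scaling. With FPKM as deposited 2 fell and 1 rose, and 19 rather than 30 of the 31 fold changes were negative, with a median of -0.16 when the median of all genes was 0.86. When libraries were scaled by total FPKM after removal of genes that held more than 1%, 2 fell, and Sec11c and Sec61b passed under both of these scalings while Tram1, Ssr4, Spcs2 and Srp9 did not. Without tumour 1, 19 fell (20.0% of all genes), and without tumour 2, 24 fell and 1 rose (30.8% and 19.7% of all genes). Without normal 1 or normal 2, limma called 0, with 14 and 11 lower at an unadjusted p under 0.05.

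**Figure D5:**
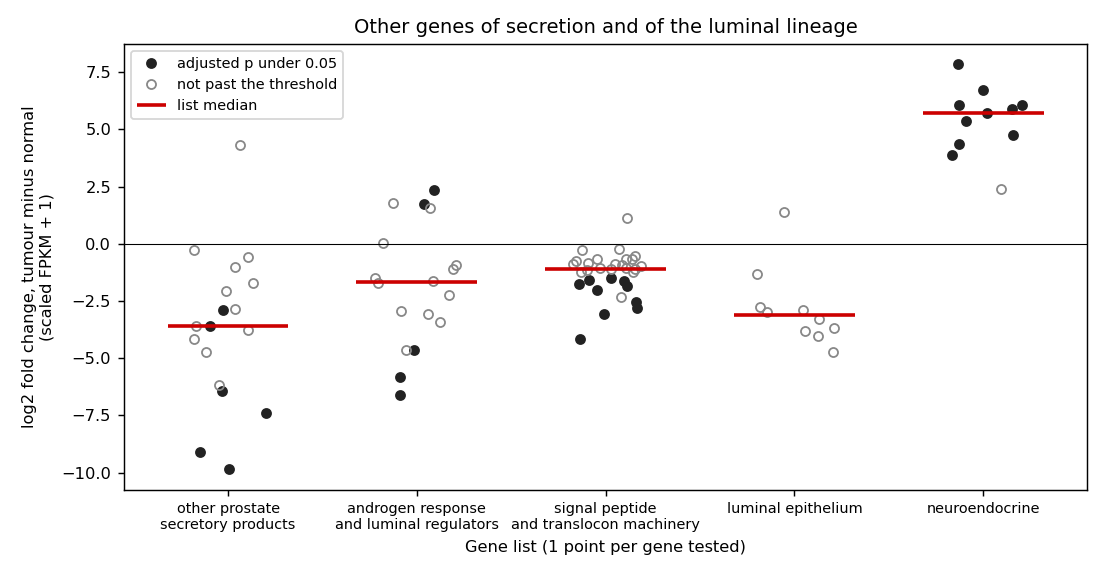
Log2 fold change, tumour minus normal, on the log2(scaled FPKM + 1) scale for each gene tested in 3 gene lists and in the luminal and neuroendocrine marker lists, with filled points past the limma threshold and red bars at the list median. The medians are -3.59 for other prostate secretory products, -1.67 for the androgen response and luminal regulators, and -1.09 for the signal peptide and translocon machinery.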

How the data were processed

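RNA from 2 normal prostates and 2 TRAMP tumours was sequenced, grouped by the treatment label, and numbered in accession order. The authors deposited 1 Cufflinks table per library with FPKM and its interval. The tools named per the submitters' processing notes are Cufflinks 2.1.1, TopHat2 2.0.8, Trim Galore and Cuffdiff 2.1.1, and the builds mm10 and GRCm38. Annotation, strand and scaling settings were not given in the sources used here. All 4 tables hold 24883 rows, of which 27 with date-like names were left out of the tests, and rows with a shared name were summed. A share is taken over the FPKM sum of all rows. Implied fragments were computed as the squared ratio of FPKM to its SD, taken as the upper half-width divided by 2. They are too low where an interval holds more than counting error. The estimate status was other than OK for 0 rows, so no value listed at 0 was flagged as a failed estimate.

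FPKM were divided by median-of-ratios factors (0.793, 0.689, 1.34 and 1.50) over 11469 genes above 0 in all libraries, a log2 shift of 0.94 between groups. Genes with FPKM of at least 1 in at least 2 libraries were tested on log2(scaled FPKM + 1), which understates the change of low genes, with limma 3.58.1 (R 4.3.3), intensity trend, two-sided, Benjamini-Hochberg adjustment and a threshold of 0.05. The fit was tried on simulated data in which all libraries had equal noise. The tumours here differed widely from each other, so that trial checks the code and not the calls. The members and lists were chosen with earlier results of these data known. The text names all 10 members, the 5 nearest profiles, the 5 highest genes of each library, 5 luminal and neuroendocrine markers and, of each list, all genes that passed if at most 6 did, otherwise the 4 largest and 2 smallest changes. Some genes of the lists are not reported here. Other named genes were chosen after their values were seen. Gene positions come from the tables, with starts raised by 1 so that they count from 1. Python 3.11.15, pandas 2.3.3, numpy 2.4.6, matplotlib 3.10.9 and Biopython 1.88 were used.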

Additional observations from a re-analysis of the deposited data

How the results depend on the processing

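With 2 libraries a group, the spread within a group is poorly known and values under about 10 implied fragments are no measured level. The 10 genes kept a negative log2 difference in all 60 recomputations (FPKM as deposited, a pseudocount of 0.1, and each library left out), from -3.51 to -17.82. These genes were chosen from the same levels, and all 10 lay below both normal libraries in both tumours, so nothing is read from that count. Their mean share of normal prostate was 53.2% of FPKM, 29.3% of implied fragments and 27.2% of FPKM for the 8 genes other than Sbp and Sbpl. Over all genes limma called 1296 higher and 1088 lower (54.4% higher). It called 3681 and 427 with FPKM as deposited (89.6% higher), 2537 and 554 scaled to the sum without genes above 1% of a library (82.1%), 1306 and 814 with a pseudocount of 0.1 (61.6%), 1210 and 843 without the intensity trend (58.9%), and 7 and 2 without the filter on low values (77.8%), where 24319 genes were tested. With 1 library left out the calls ranged from 0 to 2170 higher and from 0 to 3405 lower. The lowest came without normal 1 (1338 higher and 1096 lower at an unadjusted p under 0.05) and without normal 2 (1350 and 1004). A lone library is then assumed to vary as the other group does. Without the filter, limma called 0 members of the 3 gene lists, with 6, 5 and 20 lower and 0, 2 and 0 higher at an unadjusted p under 0.05, so every list call named in the report was lost there. For other secretory products, leaving out 1 library gave 0 to 16 lower and 0 to 2 higher. For luminal regulators it gave 0 to 13 lower and 0 to 3 higher, with 4 higher for FPKM as deposited and 1 for a pseudocount of 0.1. For the translocon it gave 0 to 24 lower and 0 to 1 higher, with 2 lower and 1 higher for FPKM as deposited, 2 lower for the sum scaling and 6 lower without the intensity trend. The cause of these moves was not tested beyond the number of genes and libraries used. No paired analysis was possible because the normal prostates came from wild-type males and the tumours from transgenic males.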
